A study of Mus musculus with 3 samples.

Results

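The vascular growth factor pairs examined here are 10 genes of 28001 features in the deposited matrix, chosen by symbol: the platelet-derived growth factors Pdgfa and Pdgfb with their receptors Pdgfra and Pdgfrb, the vascular endothelial growth factor Vegfa with its receptors Flt1 and Kdr, and the angiopoietins Angpt1 and Angpt2 with their receptor Tek. Each symbol matched a single feature. All 10 genes were read in 10 classes of single cells from the mouse nucleus accumbens, a ventral part of the striatum that receives dopamine input.

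The tissue came from Thy1::ChR2 mice, which carry the light-gated cation channel channelrhodopsin 2 under the promoter of Thy1, a gene of neurons. The cells were labelled with FLiCRE while ChR2 was stimulated in the nucleus accumbens, and the tissue was a coronal brain dissection of 400 um. FLiCRE is a reporter that turns coincident light and intracellular calcium into transcription. All 3 samples carry the same strain, treatment and tissue labels, with no unstimulated group, and no age was used. The comparisons below therefore set cell classes of a library against each other. Nothing in the labels says that the samples came from separate animals, so the spread between libraries may be technical.

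Each of these ligands is read by a receptor tyrosine kinase. PDGF-B from endothelium is known for recruiting pericytes, the mural cells that wrap brain capillaries, through PDGFR-beta, and PDGF-A is known for supporting oligodendrocyte precursor cells (OPCs) through PDGFR-alpha. VEGF-A acts on endothelium, where KDR (VEGFR2) carries most of the growth signal and FLT1 (VEGFR1) binds the ligand tightly and limits it. ANGPT1 activates TEK (Tie2) and keeps vessels quiet and tight, and ANGPT2 can oppose it.

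The 3 libraries held 2717 to 6627 deposited cells with a median of 894 to 2330 unique molecular identifiers (UMIs, tags that count each captured RNA molecule once) per cell. Library numbers below are the barcode suffix and only a name. The pairs of libraries shared 7 to 22 barcode sequences. After filtering, 9923 cells remained, and 8390 of them passed a marker gate: at least 3 UMI-positive genes from the list of a class (10 genes, or 12 for mural cells) and at least 2 times as many as from any other list. None of the 10 growth factor and receptor genes was in a list. The classes held 4638 neurons, 943 astrocytes, 103 OPCs, 1298 oligodendrocytes, 450 endothelial cells, 305 mural cells, 43 fibroblasts, 379 microglia, 160 macrophages and 71 T cells, with 586 mixed and 947 ungated cells left out. In every class the summed level of its own list exceeded that of each other list, by 3.82-fold (microglia over the macrophage list) to 85.5-fold (oligodendrocytes over the astrocyte list). Since cells were chosen by these same lists, this excess is no independent check of the class names.

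The upstream windows of the endothelial receptors Flt1, Kdr and Tek are shown because these genes had their highest level in the same class in all 3 libraries. Each run holds the 250 bases before the RefSeq transcript start (assembly GRCm38.p6, 5′ to 3′ on the strand of the gene). Capitals mark GGAAG or its reverse complement CTTCC, a form of the shorter core bound by ETS factors, a family known for driving endothelial genes.
Flt1 (chr5:147726012-147726261, minus strand): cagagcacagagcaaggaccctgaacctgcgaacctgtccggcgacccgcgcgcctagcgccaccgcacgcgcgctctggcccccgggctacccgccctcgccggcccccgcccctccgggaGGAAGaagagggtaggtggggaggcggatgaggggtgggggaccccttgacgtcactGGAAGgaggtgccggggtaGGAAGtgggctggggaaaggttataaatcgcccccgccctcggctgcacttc
Kdr (chr5:75978456-75978705, minus strand): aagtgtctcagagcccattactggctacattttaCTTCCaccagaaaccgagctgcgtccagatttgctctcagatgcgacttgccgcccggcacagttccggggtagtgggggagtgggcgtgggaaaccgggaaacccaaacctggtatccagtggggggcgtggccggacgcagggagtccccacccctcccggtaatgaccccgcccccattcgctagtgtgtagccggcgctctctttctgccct
Tek (chr4:94739039-94739288, plus strand): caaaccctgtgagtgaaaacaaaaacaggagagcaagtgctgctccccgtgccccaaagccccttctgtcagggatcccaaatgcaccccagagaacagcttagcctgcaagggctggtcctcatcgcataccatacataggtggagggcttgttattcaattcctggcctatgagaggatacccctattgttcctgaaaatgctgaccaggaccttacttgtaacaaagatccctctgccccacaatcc
A search for this form found 3 matches in the Flt1 window, 1 in the Kdr window and 0 in the Tek window. Other forms of the core were neither marked nor counted, so 0 matches does not mean that the window lacks an ETS core. The motif is common: 64.1% of 32851 promoter windows of the same length held at least 1 match on either strand. In the GENCODE M21 annotation of the same assembly, the windows of Flt1 and Tek overlapped no exon, and 3 bases of the Kdr window lay in its 5′ untranslated exon part. The RefSeq gene records, which cover all transcripts of a gene, span chr5:147561604-147726438 (Flt1), chr5:75932827-75979072 (Kdr) and chr4:94739086-94874976 (Tek), so the windows lie wholly or, for Tek, partly inside these records.

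**Figure D1:**
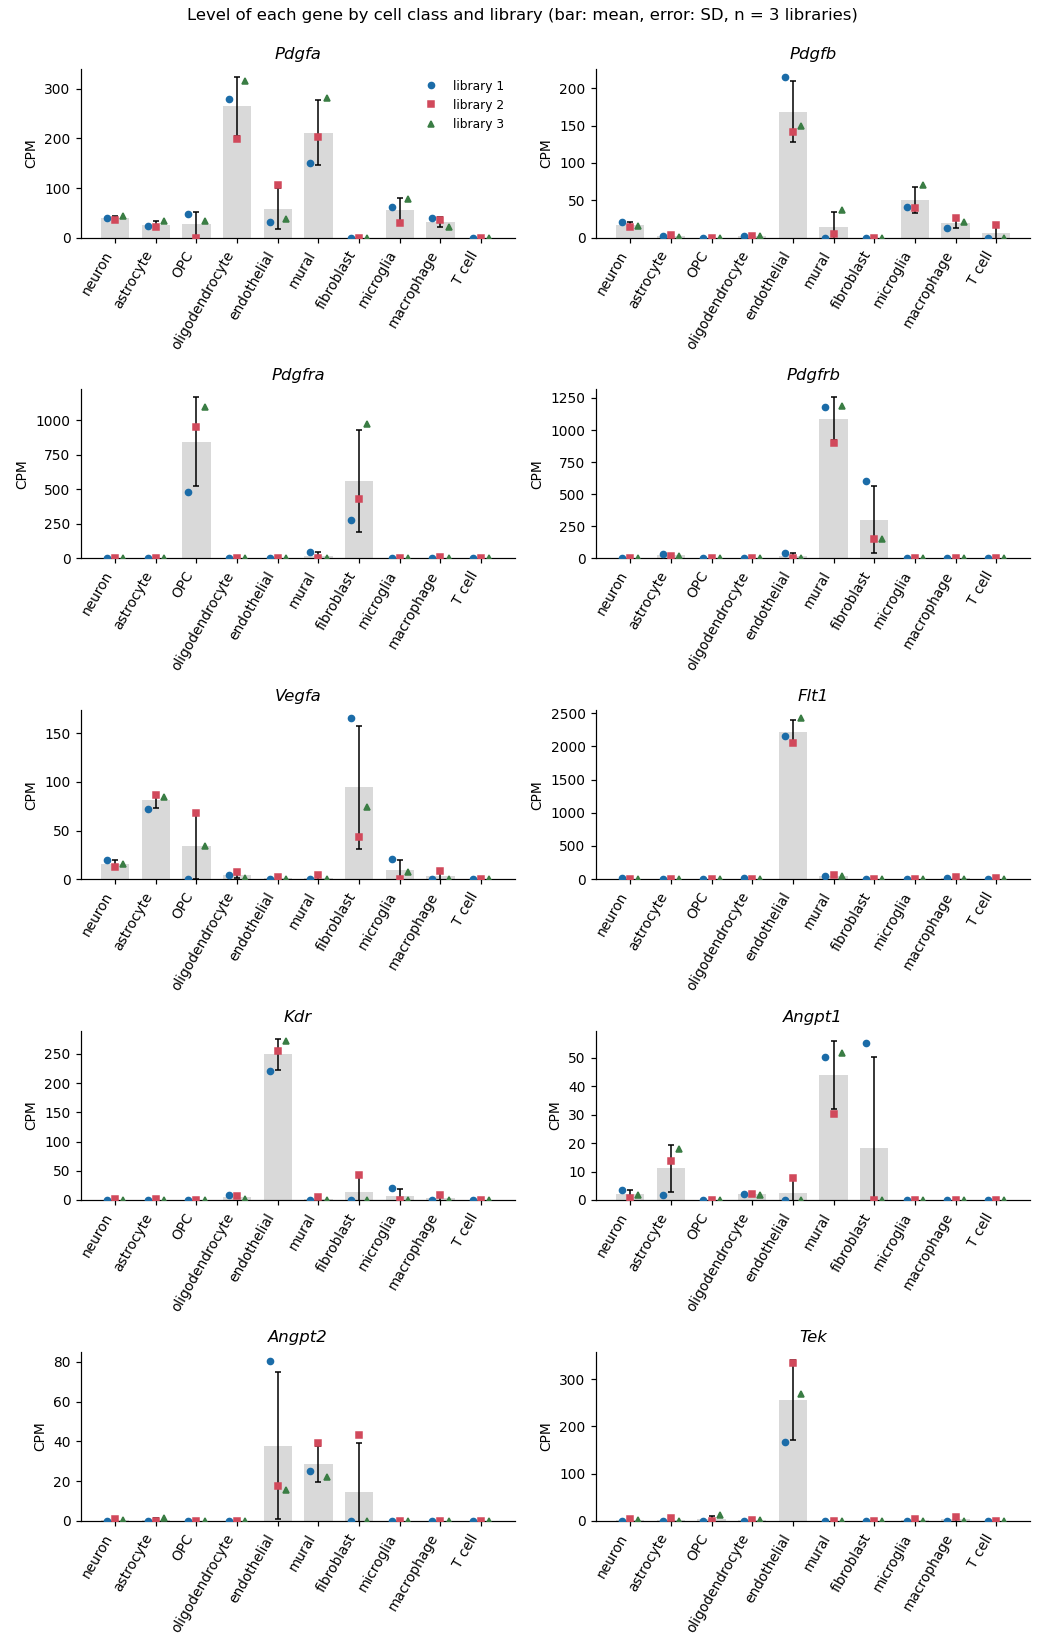
Level of each gene in UMIs per 1000000 UMIs of the class (CPM, linear axes that differ between panels) in 10 marker-gated cell classes, with bars for the mean, error bars for the SD over 3 libraries and a symbol for each library. Flt1, Kdr and Tek stand high in endothelial cells alone, Pdgfrb is highest in mural cells, and Pdgfra is high in OPCs and fibroblasts.

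Pdgfb was an endothelial ligand and Pdgfrb a mural receptor in this tissue. Levels are given as CPM, the UMIs of a gene per 1000000 UMIs summed over all cells of a class in a library. Pdgfb reached 215, 141 and 149 CPM in endothelial cells of libraries 1, 2 and 3 (mean 168.5 ± 40.6, SD, n = 3). Its next level was in microglia, with 40.9, 40.1 and 70.5 CPM, and the ranges of both classes did not overlap with each other or with the classes below them. Macrophages (20.2 CPM), neurons (17.2) and mural cells (13.8) followed, and their ranges over libraries overlapped. OPCs and fibroblasts held 0 UMIs of Pdgfb, which allows levels of up to 16.5 and 38.5 CPM over all their cells.

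Pdgfrb, the receptor on the other side of this pair, reached 1177, 896 and 1189.9 CPM in mural cells (mean 1088 ± 166, SD, n = 3). Fibroblasts came next with 607, 151 and 149 CPM, from 20 UMIs in 43 cells. The mural range lay above the fibroblast range, and both lay above all other classes. OPCs, macrophages and T cells had 0 UMIs of Pdgfrb.

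Both genes differed between endothelial and mural cells in opposite directions. In the edgeR quasi-likelihood test with the library as a block, Pdgfb was higher in endothelial cells by 3.27 on the log2 scale (SE 0.53, adjusted p = 8.48e-05) and Pdgfrb was higher in mural cells (endothelial over mural -6.56, SE 0.57, adjusted p = 2.22e-05). Both directions held in 3 of 3 libraries. The Pdgfb call was lost without library 2 (2.55, adjusted p = 0.0563).
Of the 10 genes, 6 had enough counts to be tested in this comparison and all 6 passed the threshold of an adjusted p of 0.05, against 32.9% of the 3734 genes tested (17.9% higher and 15% lower in endothelial cells). Genes enter such a test mainly through the class where they are high, so this count describes the tested genes and is no support for the set.

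Pericytes and smooth muscle cells are the mural cells of capillaries and of larger vessels. Pericytes had 1282, 1257 and 1615 CPM of Pdgfrb in libraries 1 to 3, and smooth muscle cells 973, 323 and 397 CPM. All 3 pericyte values lay above all 3 smooth muscle values. The test used libraries 2 and 3 only, since library 1 held 9 smooth muscle cells. Pdgfrb was lower in smooth muscle cells by -1.97 (SE 0.26, edgeR adjusted p = 8.07e-13), and Pdgfa was higher by 1.30 (SE 0.40, adjusted p = 0.00797), where 21.3% of 1769 genes passed (10.6% higher and 10.7% lower in smooth muscle cells). The Pdgfa call did not hold under 5 other settings (adjusted p 0.0661 to 0.584) and the Pdgfrb call was lost without the filter on low counts (adjusted p = 0.178). In the fit without that filter 0 of 12287 genes passed.

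Mural cells also exceeded fibroblasts in Pdgfrb, by 2.03 (SE 0.36, edgeR adjusted p = 0.0244, libraries 1 and 2 only), where 14.7% of 702 genes passed (8.4% higher and 6.27% lower in mural cells). Pdgfra, the other gene tested there, had 2 UMIs in mural cells against 25 in fibroblasts and missed the threshold (-4.95, SE 1.5, adjusted p = 0.0911). It passed in edgeR with all classes in 1 fit (-5.94, adjusted p = 1.78e-06) and with library totals only (-5.20, adjusted p = 5.90e-08). Without doublet removal it passed as well (-5.05, adjusted p = 0.00265). The Pdgfrb call did not hold under 4 other settings (adjusted p 0.0776 to 0.469). Few genes passed in some of these: 0 of 12628 without the filter on low counts and 9 of 1581 with Leiden classes. DESeq2 called 51 of 702 genes and the fit with no replicate block 76 of 702. The list of mural markers summed to 1250 to 1869 CPM in the fibroblast class, with 8 of 12 genes detected and Higd1b, Atp13a5, Notch3 and Myh11 at 0. In the 9 of 43 fibroblasts with 0 UMIs of that list, Pdgfrb stood at 735, 321 and 0 CPM, from 7 UMIs.

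Astrocytes carried a low level of Pdgfrb that neurons and oligodendrocytes did not reach. It measured 32.5, 22.5 and 16.3 CPM in astrocytes (56 UMIs in 943 cells), 1.96 ± 0.67 CPM in neurons and 2.21 ± 1.43 CPM in oligodendrocytes (SD, n = 3). Astrocytes exceeded neurons by 3.81 on the log2 scale (SE 0.42, edgeR adjusted p = 1.20e-04) in 3 of 3 libraries. The mural list summed to 86 to 128 CPM in astrocytes, with 10 of 12 genes detected and Kcnj8 and Myh11 at 0. In the 738 astrocytes with 0 UMIs of that list, Pdgfrb stood at 29.9, 23.6 and 15.3 CPM.
Endothelial cells held 43.0, 0 and 3.83 CPM of Pdgfrb, and 1.93 CPM on average in the 398 of 450 cells with 0 mural-list UMIs. The difference between endothelial cells and astrocytes in Pdgfrb missed the threshold (-1.30, SE 0.62, adjusted p = 0.0757).

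Pdgfa, the ligand of Pdgfra, had its highest levels in oligodendrocytes and mural cells, and OPCs carried the receptor. Oligodendrocytes had 279, 198 and 316 CPM of Pdgfa and mural cells 150.3, 203 and 281 CPM, and these ranges overlapped. Both ranges lay above those of all other classes. Endothelial cells (58.8 CPM), microglia (56.4), neurons (39.4), macrophages (31.7), OPCs (27.4) and astrocytes (26.5) followed, each overlapping with its neighbour in the order. Fibroblasts and T cells had 0 UMIs.

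Pdgfra reached 481, 950.1 and 1095 CPM in OPCs (mean 842 ± 321, SD, n = 3) and 276, 431 and 972 CPM in fibroblasts (mean 560 ± 365). These ranges overlapped, and both lay above all other classes, in which 0 to 18 UMIs were found. Library 1 was lowest for both classes. The share of OPCs with a Pdgfra UMI was 27.3% (95% Clopper-Pearson interval 10.7 to 50.2), 73.1% (59.0 to 84.4) and 93.1% (77.2 to 99.2) in libraries 1 to 3, where the median OPC held 688, 1294 and 2727 UMIs. Oligodendrocytes and astrocytes, which should lack the gene, gave 5 and 3 UMIs in all. Intervals cover counting error only. After thinning to 1000 UMIs per cell the shares were 0 of 5, 22 of 31 and 18 of 26 cells, with 17, 21 and 3 shallower OPCs left out.

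OPCs exceeded oligodendrocytes in Pdgfra by 8.49 (SE 0.36, edgeR adjusted p = 1.04e-06) and astrocytes by 8.90 (SE 0.57, adjusted p = 5.78e-05), both in 3 of 3 libraries. From summed counts the ratio over astrocytes was 787 with a counting interval of 265 to 3852, since astrocytes held 3 UMIs. In the opposite direction, Pdgfa was lower in OPCs than in oligodendrocytes by -4.08 (SE 0.49, adjusted p = 9.91e-05), with 4 UMIs in OPCs against 793 in oligodendrocytes. Both tested genes passed against oligodendrocytes, where 33.5% of 4421 genes did (14.3% higher and 19.2% lower in OPCs), and 1 of 3 passed against astrocytes, where 22.3% of 4992 genes did (10.2% higher and 12.1% lower). TMM factors shift all log2 differences of these 2 comparisons by -0.54 and -0.49 relative to library totals, and no direction flipped without them. Without library 2 the Pdgfra difference from astrocytes was 10.64 (adjusted p = 0.116) and without library 3 it was 8.29 (adjusted p = 0.149). In both of these edgeR fits 0 genes of 5173 and 5155 tested passed, with 1271 and 1167 at an unadjusted p under 0.05. The Pdgfa difference from oligodendrocytes missed it without library 3 (adjusted p = 0.0838).

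The gate found only a part of the Pdgfra-bearing cells. Mixed and ungated cells held 97 and 57 of 398 Pdgfra UMIs, and in library 1 the ungated cells held 18 against 10 in the gated OPCs. When classes were taken from Leiden clusters instead, the OPC class grew from 103 to 245 cells, and its Pdgfra level was 376, 814 and 918 CPM, in the same order of libraries. The OPC class also carried the oligodendrocyte list at 456 to 1009 CPM (10 of 10 genes) and the neuron list at 336 to 502 CPM (9 of 10 genes, Rbfox3 at 0) and the astrocyte list at 336 to 760.1 CPM (7 of 10 genes, Gja1, Gjb6 and Fgfr3 at 0), and their part in the OPC values was not tested.

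In the 103 OPCs, 4 cells had a Pdgfa UMI and all 4 also had a Pdgfra UMI. In mural cells, 45 of 305 held UMIs of both Pdgfa and Pdgfrb, 159 held Pdgfrb alone and 23 held Pdgfa alone. Fibroblasts held both PDGF receptors in 8 of 43 cells, Pdgfra alone in 14 and Pdgfrb alone in 7.

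Pdgfa also separated the vessel classes. Mural cells exceeded endothelial cells (endothelial over mural -1.79, SE 0.36, edgeR adjusted p = 8.11e-04) in 3 of 3 libraries, and the call was lost without library 3 (-1.25, adjusted p = 0.112). Mural cells carried the oligodendrocyte list at 155 to 1027 CPM, with 10 of 10 genes detected. In the 223 of 305 mural cells with 0 UMIs of that list, Pdgfa stood at 185, 154 and 280.3 CPM, close to the level of all mural cells. Smooth muscle cells had 365, 267 and 567 CPM of Pdgfa and pericytes 69.3, 153 and 149 CPM, so the smooth muscle values were higher in each library. The library 1 values rest on 3 UMIs in 9 smooth muscle cells and 2 UMIs in 36 pericytes, so the direction there is weak.

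In endothelial cells, Pdgfa was uneven. The level was 106 CPM in library 2 against 32.3 and 38.3 CPM in libraries 1 and 3. Cells that passed the arterial list held 25 of the 58 endothelial Pdgfa UMIs, 23 of them in library 2, although they were 29 of 450 cells. In the 26 arterial cells with 0 mural-list UMIs, Pdgfa stood at 0, 375 and 0 CPM. Capillary cells had 15.4 ± 18.0 CPM and venous cells 54.1 ± 4.4 CPM (SD, n = 3). The endothelial excess over astrocytes (1.03, SE 0.40, edgeR adjusted p = 0.0282) fell to 0.09 without library 2 (adjusted p = 0.898). Its call was also lost without library 1 (1.22, adjusted p = 0.0788) and under 5 other settings, with DESeq2, Leiden classes, the loose gate, no low-count filter or no replicate block (0.75 to 1.05, adjusted p 0.0631 to 0.334). Endothelial cells carried the oligodendrocyte list at 387 to 659 CPM (10 of 10 genes), and in the 204 cells with 0 UMIs of it Pdgfa stood at 9.17, 53.4 and 45.7 CPM.

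**Figure D2:**
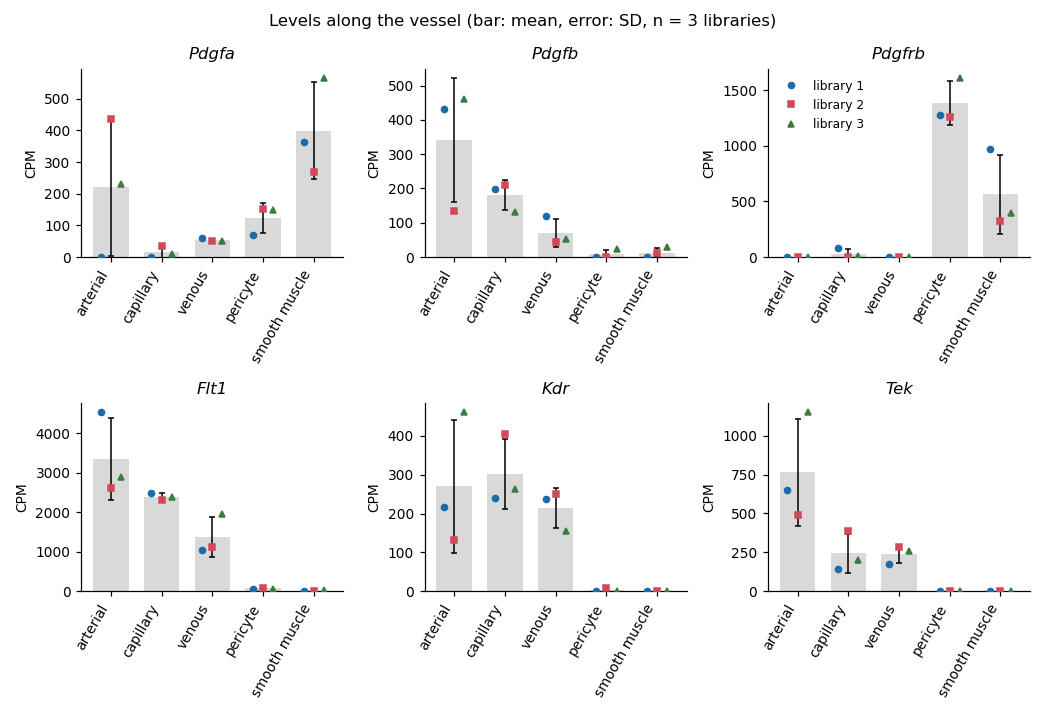
CPM of 6 genes in endothelial and mural subclasses (29 arterial, 188 capillary, 53 venous, 213 pericyte and 72 smooth muscle cells), with bars for the mean, error bars for the SD over 3 libraries and a symbol for each library. Pdgfrb is higher in pericytes than in smooth muscle cells, Pdgfa the reverse, and Tek is higher in arterial than in venous and capillary cells. In library 1 Pdgfa rests on 3 UMIs in smooth muscle cells and 2 in pericytes.

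Vegfa had its highest means in 2 classes, fibroblasts and astrocytes, and was almost absent from the endothelial cells that carry its receptors. Astrocytes had 72.6, 86.8 and 84.4 CPM (mean 81.3 ± 7.6, SD, n = 3, 203 UMIs). Fibroblasts had 165.5, 43.1 and 74.7 CPM from 6 UMIs. Their range overlapped with those of both astrocytes and OPCs, so their place in the order is not resolved. The astrocyte range lay above that of OPCs (0, 67.9 and 34.2 CPM), neurons (20.2, 12.1 and 15.6 CPM) and all classes below. In the 44 of 103 OPCs with 0 astrocyte-list UMIs, Vegfa stood at 0, 40.4 and 0 CPM, from 1 UMI. Endothelial and mural cells held 1 UMI each.

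Astrocytes exceeded neurons in Vegfa by 2.99 (SE 0.25, edgeR adjusted p = 2.87e-05) and endothelial cells by a ratio of 70.1 in summed counts, with a counting interval of 12.4 to 2784 and an adjusted p of 6.04e-11. Both directions held in 3 of 3 libraries. The share of astrocytes with a Vegfa UMI was 10.6%, 18.3% and 26.6% in libraries 1 to 3, and 6.79%, 9.34% and 6.33% after thinning to 1000 UMIs, with 80, 69 and 19 shallower astrocytes left out. Oligodendrocytes gave 0.47%, 1.59% and 0.66%, at a median depth of 1860.5 UMIs against 1991 in astrocytes. The difference between OPCs and astrocytes in Vegfa missed the threshold (-1.34, SE 0.56, adjusted p = 0.122) and passed with Leiden classes (-1.61, adjusted p = 0.0230).

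Neurons made up 43.1% of kept cells on average and held 34.2% ± 9.0 of Vegfa UMIs, while astrocytes made up 10.2% and held 46.2% ± 6.8 (SD, n = 3). For Pdgfb the same 2 measures put 41.6% ± 15.2 of UMIs in neurons and 38.3% ± 16.3 in endothelial cells, which were 5.05% of cells. In UMIs, neurons held 195 and endothelial cells 135 of 414 for Pdgfb.

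Flt1 and Kdr were endothelial receptors. Flt1 stood at 2157, 2053 and 2423 CPM in endothelial cells, and 85.4% ± 1.9 of all its UMIs lay in this class. Kdr stood at 220.5, 254 and 272 CPM, with 79.7% ± 7.6 of its UMIs in the class. Both ranges lay far above every other class. Endothelial cells exceeded mural cells in Flt1 by 5.29 (SE 0.25, edgeR adjusted p = 1.14e-10) and astrocytes by 9.35 (SE 0.45, adjusted p = 6.01e-23), in 3 of 3 libraries. For Kdr the mural class held 1 UMI, and the ratio was 102.5 with a counting interval of 18.2 to 4068 (adjusted p = 1.49e-07).

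A low level of Flt1 was seen in mural cells, at 50.1, 56.3 and 51.7 CPM, above the range of the remaining classes. Pericytes held 20 of these 22 UMIs. The endothelial list summed to 597 to 701 CPM in mural cells, with 9 of 10 genes detected and Cdh5 at 0. In summed counts, Flt1 in mural cells stood at 2.47% of its endothelial level, and this list at 3.27% of its own. Whether the mural Flt1 is RNA of endothelial cells was not tested. In the 154 of 305 mural cells with 0 UMIs of that list, Flt1 stood at 51.8, 35.0 and 83.4 CPM, from 8 UMIs. Tek had 0 UMIs in mural cells, but it was also scarcer than Flt1 in endothelial cells (234 against 1849 UMIs).

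Of 450 endothelial cells, 388 had a Flt1 UMI, 140 had a Kdr UMI and 124 had both. The shares of cells with Kdr were 19.0%, 32.7% and 49.4% in libraries 1 to 3 and 19.7%, 21.4% and 21.4% after thinning to 1000 UMIs, with 92, 65 and 17 shallower cells left out. Thinned shares for Flt1 were 84.8%, 82.1% and 91.4%. Oligodendrocytes, at a median depth of 1860.5 UMIs against 1275.5 in endothelial cells, gave 0.93% to 1.41% of cells with Kdr.

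Along the vessel, Flt1 measured 4534, 2618 and 2878 CPM in arterial cells, 2499, 2312 and 2373 CPM in capillary cells and 1035, 1117 and 1963 CPM in venous cells. The 3 ranges did not overlap, in the order arterial, capillary, venous. Kdr ranges overlapped between all 3 subclasses. No test was run between these subclasses, and arterial cells numbered 4 to 20 per library.

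Tek, the receptor of both angiopoietins, stood at 167, 335 and 268 CPM in endothelial cells, and 82.8% ± 11.4 of its UMIs lay there. Mural cells had 0 UMIs, so Tek was at least 37.5-fold higher in endothelial cells (edgeR adjusted p = 3.65e-07), counting 3 UMIs as the limit over all mural cells. Over astrocytes, which held 6 UMIs, the log2 difference was 6.68 (SE 0.47, adjusted p = 4.05e-17). Arterial cells had 648, 493 and 1151 CPM, capillary cells 146, 387 and 202 CPM and venous cells 178, 284 and 258 CPM. The arterial range lay above both others, with 39 UMIs in 29 cells.

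Both angiopoietins were scarce. Angpt1 had 80 UMIs in all kept cells and Angpt2 had 63, and neither had enough counts for the test across genes in a comparison of the vessel classes. Angpt1 had its highest mean in mural cells, at 50.1, 30.3 and 51.7 CPM from 16 UMIs. Fibroblasts, with 55.2, 0 and 0 CPM from 1 UMI, overlapped with this range. The mural values compare with 0, 7.56 and 0 CPM in endothelial cells. The ratio of mural to endothelial summed counts was 11.1 with a counting interval of 3.17 to 59.3. Astrocytes held more Angpt1 UMIs than mural cells (30 in 943 cells) at a lower level of 1.91, 13.7 and 17.8 CPM, and 7.63 CPM on average without mural-list UMIs.

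Angpt2 was found in endothelial cells at 80.7, 17.6 and 15.3 CPM and in mural cells at 25.1, 39.0 and 22.2 CPM. The ranges overlapped, and the mural to endothelial ratio of summed counts was 1.04 (counting interval 0.49 to 2.10). Library 1 held 15 of the 26 endothelial UMIs. Microglia, macrophages, T cells, OPCs and oligodendrocytes had 0 UMIs of Angpt2.

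**Figure D3:**
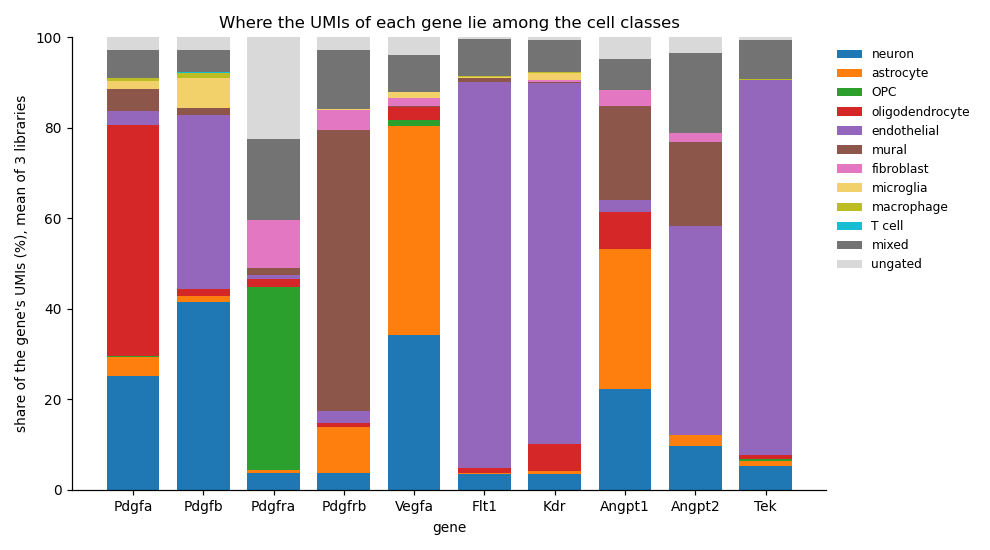
Share of the UMIs of each gene (percent, mean of 3 libraries) that lay in each marker-gated class and in mixed or ungated cells. Endothelial cells hold 85.4% of Flt1, 79.7% of Kdr and 82.8% of Tek UMIs, while the UMIs of Pdgfb, Vegfa and Angpt1 are spread over several classes.

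In the class with the highest receptor level, the ligand level was on average 0 for Pdgfb in OPCs, 0.84 CPM for Vegfa and 2.52 CPM for Angpt1 in endothelial cells, 13.8 CPM for Pdgfb in mural cells and 27.4 CPM for Pdgfa in OPCs. The ligand level was higher for Angpt2 in endothelial cells (37.9 CPM, 15 of 26 UMIs from library 1). Pdgfa stood at 212 CPM in mural cells, which carried Pdgfrb but only 2 UMIs of Pdgfra, the receptor named here for Pdgfa. RNA levels of separate cell classes do not measure contact or binding.

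Neuronal ligand levels were compared between D1-like and D2-like neurons, which stand for the striatal projection neurons that express Drd1 or Drd2. Pdgfa was 45.1, 29.6 and 25.2 CPM in D1-like and 16.1, 33.4 and 39.0 CPM in D2-like neurons, with overlapping ranges. None of the 3 genes tested passed (Pdgfa -0.20, SE 0.20, adjusted p = 0.830; Pdgfb 0.02, SE 0.28, adjusted p = 0.990; Vegfa -0.40, SE 0.28, adjusted p = 0.705; edgeR, D1-like over D2-like), where 2.95% of 9159 genes did (1.66% higher and 1.29% lower in D1-like neurons). The sign of the Pdgfb value changed between settings. No member reached an unadjusted p of 0.05 in this comparison (the lowest was 0.165, for Vegfa). DESeq2 also called 0 of them, where it called 73 of 9159 genes. Among 263 glutamatergic cells, Pdgfb stood at 83.4, 28.2 and 23.3 CPM and Pdgfa at 46.3, 53.2 and 81.7 CPM.

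Astrocytes and neurons differed in Pdgfb (-2.18, SE 0.47, edgeR adjusted p = 0.00335) in 3 of 3 libraries, and the call was lost without library 3 (adjusted p = 0.0569). Of 4 genes tested, 3 passed in this comparison, where 61.1% of 9911 genes did (29.3% higher and 31.8% lower in astrocytes). Scaling moves this comparison: TMM factors shift all log2 differences by 0.57 towards astrocytes relative to library totals. Pdgfa was lower in astrocytes in CPM in 3 of 3 libraries and stood at -0.03 (SE 0.24, adjusted p = 0.922) after that scaling, and at -0.58 (adjusted p = 0.0666) with library totals only. The directions of Pdgfb, Pdgfrb and Vegfa were the same with either scaling. The same shift was 0.29 for mural cells against fibroblasts and -0.15 for endothelial cells against astrocytes. Against astrocytes, endothelial cells passed for 6 of 7 genes tested, the unsteady Pdgfa call among them, where 50.7% of 6324 genes passed (24.9% higher and 25.8% lower in endothelial cells), and microglia against macrophages had 0 genes of the family with enough counts for a test (12.5% of 1423 genes passed, 7.17% higher and 5.34% lower in microglia). Pdgfb in microglia stood at 55.8 ± 14.5 CPM in cells with 0 endothelial-list UMIs.

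**Figure D4:**
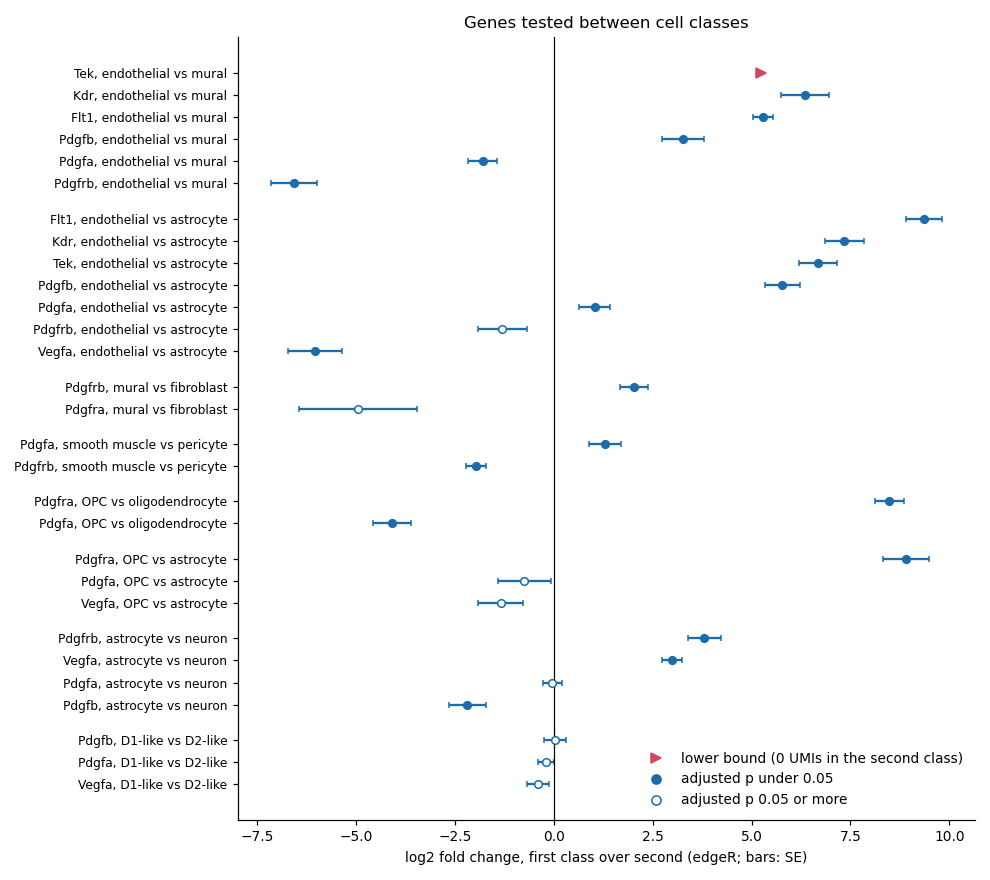
Log2 fold change (x axis, first class over second) of each tested gene in 8 comparisons, with the SE as bars. Filled points passed an adjusted p of 0.05, open points did not, and the triangle is the lower bound for Tek, which had 0 UMIs in mural cells. Flt1 (9.35 over astrocytes) and Pdgfra in OPCs (8.90 over astrocytes) lie far right, and the 3 values for D1-like over D2-like neurons lie near 0.

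The other genes of these pathways, 28 in fixed lists, were read in the same fits. Between endothelial and mural cells 13 had enough counts, of which 6 were higher in endothelial cells, 1 was higher in mural cells and 6 did not pass (median log2 difference 0.91, all genes 0.03, where 32.9% of all genes passed). Higher in endothelial cells were Tie1, the partner of Tek (5.23, SE 0.77), Ptprb, a phosphatase that acts on Tek (7.03, SE 0.48), Nos3, the endothelial nitric oxide synthase (7.22, SE 0.99), Foxo1, a transcription factor restrained by Tek signalling (1.65, SE 0.41), the glucose transporter Slc2a1 (6.39, SE 0.32) and Ankrd37 (4.66, SE 0.64). Placental growth factor Pgf, a ligand of Flt1, was higher in mural cells (-4.55, SE 0.54). These 7 had edgeR adjusted p-values of 0.00412 or less. The co-receptors Nrp1 and Nrp2 did not pass, with 196 ± 48 CPM of Nrp1 in endothelial and 137 ± 34 CPM in mural cells.

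Pgf stood at 75.2, 156 and 103 CPM in mural cells, 45.9, 82.8 and 68.1 CPM in astrocytes and below 10 CPM on average in neurons and endothelial cells. Astrocytes exceeded neurons in both other VEGF ligands tested, Pgf (5.06, SE 0.39, adjusted p = 2.09e-05) and Vegfb (1.89, SE 0.20, adjusted p = 1.06e-04), and exceeded endothelial cells in both as well (endothelial over astrocyte -3.98, SE 0.56, and -2.48, SE 0.35). Between endothelial cells and astrocytes, 18 pathway genes were tested, of which 11 were higher in endothelial cells, 3 in astrocytes and 4 did not pass (median 2.43, all genes -0.02, where 50.7% of all genes passed). Apln, known as a tip-cell gene of endothelium, was among those higher in astrocytes (-2.17, SE 0.59, adjusted p = 0.00188), with 35.3 ± 5.3 CPM there.
Between astrocytes and neurons 14 were tested, 8 of them higher in astrocytes and 2 in neurons. Of all genes, 61.1% passed there (29.3% higher and 31.8% lower in astrocytes). OPCs were lower than astrocytes in 5 of 9 and higher in 0, where 12.1% of all genes were lower and 10.2% higher. Against oligodendrocytes OPCs were higher in 1 and lower in 2 of 6, where 33.5% of all genes passed. Epas1 was the only pathway gene tested between mural cells and fibroblasts and was higher in mural cells. None of 3 passed between smooth muscle cells and pericytes, none of 2 between microglia and macrophages, and 1 of 11 was lower in D1-like than in D2-like neurons.

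Genes with the most similar pattern were ranked by Pearson's r of log2(CPM + 5) over 28 sums of a class in a library, among 13590 genes with at least 10 CPM in a class. The sums of a library share depth and the classes are few, so r is a description. For Tek the 3 closest genes were Mmrn2 (r 0.97), Tbx1 (0.97) and Fgd5 (0.97), for Flt1 St6galnac2 (0.93), Adgrf5 (0.93) and Tmem252 (0.92), and for Kdr Nos3 (0.93), the gate marker Cldn5 (0.91) and Adgrl4 (0.90). All 9 were highest in endothelial cells. Pdgfb was closest to Lmo2 (0.89), Cd34 (0.84) and Hhex (0.84), also endothelial, and Pdgfrb to Sod3 (0.97), Lhfp (0.96) and Vasn (0.95), all mural. Pdgfra was closest to the OPC gate marker Vcan (0.84), Traf4 (0.83) and Rnf43 (0.81).
Weaker likeness was found for Pdgfa, with Myo1e (0.77), Prr5l (0.75) and Ppfibp2 (0.74), of which the first was highest in mural cells and the others in oligodendrocytes. Vegfa was closest to Sulf1 (0.87), Tlcd1 (0.85) and Igfbp2 (0.84), highest in fibroblasts, astrocytes and fibroblasts. For the scarce Angpt1 the 3 were RP24-136L4.6 (0.88), Nnmt (0.86) and Ccdc3 (0.86), highest in fibroblasts, fibroblasts and mural cells. The first 2 had the same mean level in fibroblasts, 27.6 CPM. In library 1, 1 UMI in that class equals 55.2 CPM, the level of Angpt1 itself there. Their r values may thus rest on 1 UMI in that sum. For Angpt2 the 3 were Tbx3 (0.90), Vsig10 (0.90) and Synpo2 (0.90), highest in mural, endothelial and mural cells.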

How the data were processed

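UMI counts were deposited by the authors as raw whole-number counts in 1 pooled matrix, from 10x 3′ v2 libraries per the labels' protocols, and made with Cell Ranger 3.0 and mm10 per the submitters' processing notes. Kept cells had 300 or more genes and mitochondrial UMIs of 20% or less. The highest Scrublet scores (scanpy 1.11.5) were removed at 0.8% per 1000 cells (44, 296 and 28 cells). The genes examined, marker lists, pathway lists and settings were chosen with earlier results of these data known. Named genes were all 10 members, pathway genes that passed, and the 3 most alike genes of each member.

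Counts were summed per library and class (at least 10 cells) and compared with edgeR 4.0.16 (quasi-likelihood, robust, TMM, filterByExpr, library block, Benjamini-Hochberg over all genes tested at 0.05). Simulated counts were drawn from 1 mean profile shared by both classes, with a dispersion of 0.05 for each gene and no library effect. On these counts, planted log2 changes of 2 were recovered in 33.3% (OPCs against astrocytes), 35.8% (OPCs against oligodendrocytes) and 81.2% to 100% (other comparisons). Planted changes of 1 were recovered in 0%, 1.27% and 21.6% to 38.0%, in the same order. Unchanged genes were called in 3.54% for mural cells against fibroblasts and in at most 0.36% elsewhere. A missed threshold in an OPC comparison thus does not show equal levels. Real class sums may vary more than the simulated ones, so these rates may not carry over to them. SE is the log2 fold change over the square root of F. The library block pairs both sums of 1 library by design. A level of 0 is read as up to 3 UMIs. Counting intervals of ratios (95%) are exact conditional binomial. Alternatives were DESeq2 1.42.0, other gates, Leiden classes, depth, doublets, filter, block, pooled fit and leaving out a library. 2 of the markers, Trbc2 and Gpr52, were not matched. Subclasses needed 2 markers.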

Additional observations from a re-analysis of the deposited data

How the results depend on the processing

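Direction and call were unchanged in 306 of 343 alternative log2 differences, and 90 of 108 alternative counts of genes called stayed within 1.5 times. Among 517 alternative CPM values 45 were counted as moved, 16 of them with Leiden classes and 13 with the strict gate. Of 100 shares of cells thinned to 1000 UMIs, 21 were counted as moved. The main fits hold the library as a block, and in the fit with no replicate block the count fell from 1 to 0 between mural cells and fibroblasts and from 2 to 1 between smooth muscle cells and pericytes, with no other count moved by over 1.5 times. Of all genes, 76 of 702 and 199 of 1769 passed in these 2 fits. Between mural cells and fibroblasts the count was 0 with DESeq2, Leiden classes or no filter on low counts, 2 without doublet removal or with library totals only, and 3 with all classes in 1 fit. In the same order of settings, the genes that passed were 51 of 702, 9 of 1581, 0 of 12628, 157 of 722, 179 of 702 and 293 of 7420. Between smooth muscle cells and pericytes the count of members was 1 with DESeq2, with library totals only or with cells of at least 1000 UMIs, and 0 without the filter. Of all genes, 100 of 1254, 281 of 1769, 190 of 1426 and 0 of 12287 passed in these fits. Both comparisons rest on 2 libraries, so no library could be left out. Between OPCs and astrocytes the count of members was 2 (Leiden classes, or all classes in 1 fit) and ranged from 0 to 1 when a library was left out. Of all genes, 1504 of 5258 and 1512 of 7420 passed, and 0 to 177 when a library was left out. Between OPCs and oligodendrocytes the count of members was 0 with the strict gate, where 5 of 5313 genes passed. It was 1 to 2 when a library was left out, where 68 to 669 genes passed. The sign of 2 differences near 0 reversed. Pdgfa between astrocytes and neurons was 0.0043 (DESeq2), 0.28 (Leiden classes) and 0.19 (loose gate), and -0.066 to 0.078 when a library was left out. Pdgfb between D1-like and D2-like neurons was -0.078 (DESeq2), -0.011 (Leiden classes) and -0.044 (no replicate block), and -0.0034 to 0.093 when a library was left out. The cause of these shifts was not tested. Cells with 0 UMIs of another list and library totals only were added after seeing the data. Mural cells against fibroblasts had no value with the strict gate or the 1000 UMI minimum, and smooth muscle cells against pericytes none with the strict gate. In OPCs, fibroblasts and T cells a library held at most 87655 UMIs, so 3 UMIs equal 34.2 CPM or more, and levels below that rest on 1 or 2 UMIs there.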
